A study of Mus musculus with 6 samples.

Results

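The genes described here encode nucleolar ribosome biogenesis factors, the proteins that cut, modify and fold ribosomal RNA and build it into the 2 ribosomal subunits. They were chosen by gene symbol from the spike-in normalized gene table, and the rule uses no measured value, although it was drawn up with earlier results of these data known. They came to 58 of its 17173 genes. By their known roles 30 act in assembly of the small subunit, 19 in assembly of the large subunit and 5 in the particles that modify ribosomal RNA. The abundant nucleolar proteins nucleophosmin (Npm1) and nucleolin (Ncl) make a further class of 2. The symbol rule also took in Nol3 and Nol4, for which no subunit is assigned here. Nol3 is known as a repressor of apoptosis.

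The study sequenced bone marrow RNA of a multiple myeloma mouse model, in 3 libraries with the genotype label control and 3 with the label Che-1 silencing. All 6 carry the source label VkCHE mice, and no label states strain, sex, age, how silencing was done or whether animals were pooled. Che-1 is the product of the gene Aatf, a nuclear protein that binds RNA polymerase II and that is also part of the small subunit processome in human cells. Libraries were made from total RNA after removal of ribosomal RNA, and ERCC spike-ins, synthetic RNAs added in known amounts, were counted in each.

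Ribosome synthesis begins in the nucleolus with transcription of a long precursor RNA by RNA polymerase I. The small subunit processome assembles on the 5′ end of the precursor while it is being made, guided by the U3 small nucleolar RNA. Its modules UTP-A, UTP-B, UTP-C and the Mpp10 complex fold and cleave the part that becomes 18S rRNA. Large subunit factors, among them the PeBoW complex, process the remainder into 5.8S and 28S rRNA. Box C/D particles methylate the RNA and H/ACA particles convert uridines to pseudouridine. Cells that divide quickly, such as marrow progenitors and activated B cells, are known to make these factors at high rates.

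The deposited table gives group means only, and reads per library were solved from them for 17108 genes, all 58 members included. The 65 genes without a solution made up 15.84% of the control total and 14.41% of the other group's, as sums of deposited means. Recovered reads ranged from 11675122 to 25819939 per library and spike-in reads from 228087 to 1149392. Members took 0.576%, 0.427% and 0.426% of the recovered reads in controls 1, 2 and 3, and 0.636%, 0.683% and 0.492% in the libraries of the other group. Every tested member with an assigned class had at least 236 reads in each library, and 52 members lay above the median level of all tested genes. Controls 2 and 3 were much closer to each other than any other pair, with a mean chi-square per gene of 2.13 against 17.8 to 170 for the other pairs within a group. Over all genes that mean is above sampling noise, so they were kept as separate libraries. The median per gene was lower, at 0.632 over all genes against 3.03 to 26.4 for the other pairs. Members alone were nearer to sampling noise in this pair, with a mean of 1.65 and a median of 0.427. Since no label ties a library to a mouse of its own, the spread behind each p-value may be technical in part or whole.

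Aatf itself had 896, 396 and 421 normalized counts in controls 1, 2 and 3, against 1986, 3808 and 1223 under the label Che-1 silencing. It was thus not lower in the libraries with that label, and no group overlap was seen at the spike-in level. The log2 difference was 1.98 (SE 0.57, limma adjusted p = 0.00212, n = 3 per group) on the spike-in scale and 0.45 (SE 0.19, limma adjusted p = 0.143) relative to the median gene. Directions below are therefore those of the libraries labelled Che-1 silencing, here called silencing-labelled libraries 1, 2 and 3, and not of a checked silencing. Xist, the RNA of the inactive X chromosome, had means of 5.64 and 68685 in the authors' deposited table for control and Che-1 silencing, so that label and sex cannot be told apart. Markers of erythroid cells, neutrophils, B cells, plasma cells, T cells and macrophages were all detected. None of the recovered ones was at 0 in all libraries together.

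Per spike-in, nearly the whole set stood higher under the Che-1 silencing label. Of the 57 members that passed a minimum mean of 10 normalized counts, 56 rose and 0 fell at a limma adjusted p of at most 0.05, against 66.8% of all 14636 tested genes rising and 0.745% falling. The median log2 difference was 1.95, against 1.55 over all tested genes, and single members ran from 0.95 for Nol3 to 2.50 for Nop16. In 49 of the 57 every silencing-labelled library lay above every control, which was so for 68.0% of all tested genes, while 0.437% had every such library below. The other 8 (Bysl, Nop56, Wdr46, Rrp12, Nip7, Nol6, Utp20 and Ncl) overlapped because control 1 exceeded silencing-labelled library 3. In bulk marrow, more cells of a type and more RNA per cell cannot be told apart, and no label states how the spike-ins were dosed.

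The number called on this scale depended on which libraries entered and on the use of a shared spread. It was 22 without control 2 (22.1% of all genes rose there), 23 without control 3 (24.3%) and 23 with these controls summed into 1 library (23.5%). Without silencing-labelled library 1 it was 35 (39.0%), without library 2 it was 40 (42.0%), and it was 56 without control 1 (66.6%) or without library 3 (75.6%). With each gene's own spread in place of the shared one, limma called 0 (0.00%), and 40 members were then higher at an unadjusted p under 0.05 (57.9% of all genes). The small limma adjusted p-values given below for single genes on the spike-in scale therefore rest on the shared spread.

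Relative to the median gene of the same library the set stood higher by a smaller amount, and no member passed the test. This relative scale sets the median log2 level of all libraries equal, which removes shifts of whole libraries. The order of the members by limma log2 difference is therefore the same on both scales by construction. Of the 57 members 55 had a positive log2 difference, against 50.9% of all tested genes, with a median of 0.42 and a middle range of 0.26 to 0.64 over the members, beside 0.02 and −0.54 to 0.42 over all genes. The limma fit called 0 members in either direction, with 0.00% of all genes rising and 0.0273% falling, and edgeR also called 0. At an unadjusted p under 0.05, 22 members were higher and 0 lower, where 17.9% of all genes were higher and 17.3% lower. DESeq2 called 15 members as risen, against 15.0% of all genes, and without silencing-labelled library 3 limma called 39, against 27.7%. Groups did not overlap for 14 of the 57, or 24.6%, close to the 20.6% of all genes for which this held in the same direction. None lay wholly below the controls, as 19.7% of all genes did.

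**Figure D1:**
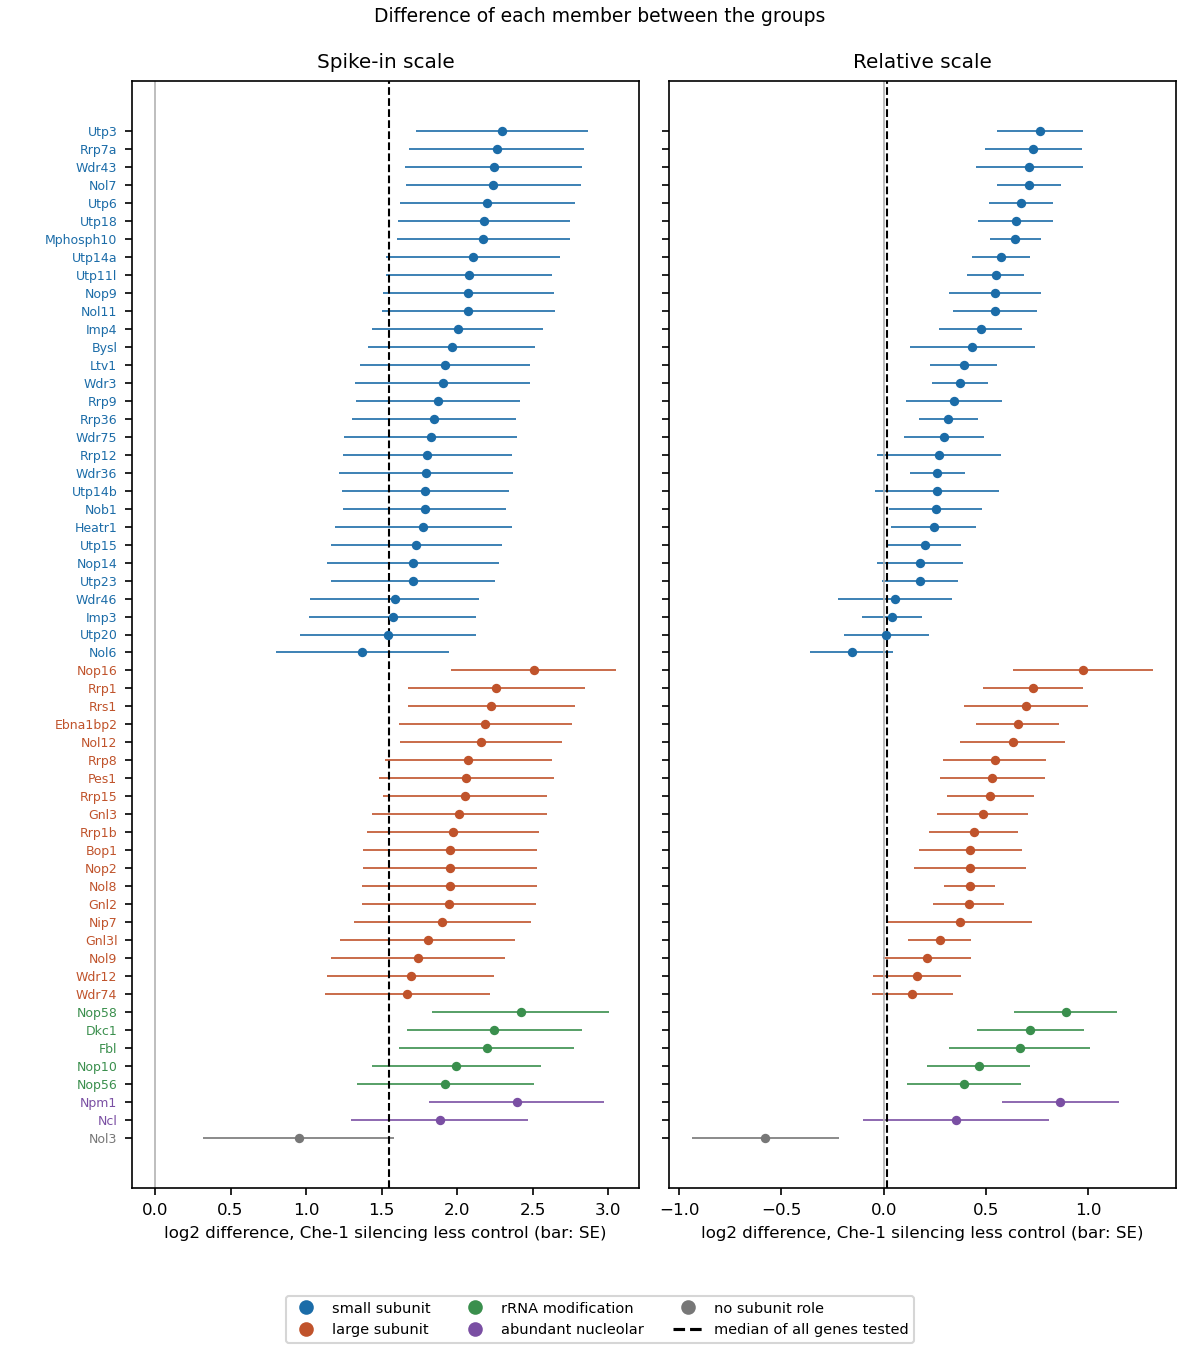
Log2 difference of each tested member between the 3 libraries labelled Che-1 silencing and the 3 controls, with bars of 1 SE, on the spike-in scale and on the relative scale, coloured by class. All points on the spike-in scale are above 0, as were 13737 of all 14636 tested genes. On the relative scale the members run from −0.58 to 0.97.

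Among small subunit factors, all 30 rose per spike-in, beside 66.8% of all tested genes, with a median log2 difference of 1.89. Relative to the median gene the class median was 0.36. At an unadjusted limma p under 0.05, 12 were higher, beside 17.9% of all genes. Of the 30, 29 were positive, beside 50.9% of all genes. Nol6, a UTP-C protein, was the exception at −0.16. The class spread widely, from that value to 0.76 for Utp3.

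The UTP-A module, which binds the precursor RNA first, had 5 members with relative differences from 0.20 to 0.71 and a median of 0.29. Heatr1, the large scaffold of this module, had 2367, 1099 and 1258 normalized counts in the controls and 5485, 9414 and 2539 in the silencing-labelled libraries. Its groups did not overlap per spike-in, although silencing-labelled library 3 lay only just above control 1. The log2 difference was 1.77 on the spike-in scale (SE 0.59, limma adjusted p = 0.00626) and 0.24 on the relative scale (limma adjusted p = 0.408). Wdr43, another UTP-A protein, had 2566, 1246 and 1412 against 8649, 16007 and 3452 normalized counts. It was the highest of the module, at 2.24 on the spike-in scale and 0.71 on the relative scale (SE 0.26, limma adjusted p = 0.117).

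In the UTP-B module, which joins after UTP-A, the 4 members had a relative median of 0.51. In 3 of them (Utp18, Utp6 and Wdr3) the groups did not overlap on the relative scale, which held for 20.6% of all tested genes in that direction. Utp6 had the largest of these differences, 0.67 (SE 0.16, limma adjusted p = 0.074). Of UTP-C, Rrp7a had 953, 547 and 626 against 4097, 5858 and 1503 normalized counts, without overlap on either scale, and a relative difference of 0.73 (SE 0.24, limma adjusted p = 0.0981). Nol6, its partner in the module, had 1133, 484 and 573 against 2004, 2871 and 949. These groups overlapped, since control 1 exceeded silencing-labelled library 3, and the log2 differences were 1.37 on the spike-in scale (SE 0.57, limma adjusted p = 0.027) and −0.16 on the relative scale (limma adjusted p = 0.579).

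The Mpp10 complex binds the U3 particle, and its 3 proteins differed in their relative values. Mphosph10, its name-giving scaffold, had 903, 462 and 516 normalized counts in the controls and 2507, 4331 and 1826 in the silencing-labelled libraries. The groups stood clear of each other on both scales, and the relative difference of 0.64 (SE 0.12) had the lowest limma adjusted p of any member, 0.0728. Imp4 had 721, 352 and 415 against 2036, 3532 and 949 normalized counts and a relative difference of 0.47 (limma adjusted p = 0.15). Imp3 had 550, 290 and 309 against 1149, 1570 and 721 normalized counts. Its groups did not overlap per spike-in, with a log2 difference of 1.57 (SE 0.55, limma adjusted p = 0.0098), but its relative difference was 0.04 (SE 0.15, limma adjusted p = 0.84), which became negative without control 3 or without silencing-labelled library 1.

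The remaining 12 processome proteins had a relative median of 0.33 and ran from 0.01 to 0.76. Utp3, the highest small subunit factor, had 735, 352 and 394 against 2138, 4687 and 1203 normalized counts. It stood clear of overlap on both scales, at 2.29 per spike-in and 0.76 relative (SE 0.21, limma adjusted p = 0.0839). Nol7, Utp14a, Utp11l and Rrp36 also had no overlap on the relative scale, with differences of 0.71, 0.57, 0.55 and 0.32. With Utp3 they make 5 of the 12 (41.7%), beside 20.6% of all tested genes in that direction. Utp20, a very large scaffold protein of the processome, had 2129, 946 and 1077 against 3738, 7330 and 1963 normalized counts. Silencing-labelled library 3 lay below control 1, and the relative difference of 0.01 (SE 0.21, limma adjusted p = 0.966) had no stable sign across alternatives. Utp14b is known as a retroposed copy of Utp14a, so reads of the pair could be split between them, and its position overlaps Acsl3 on the same strand, which makes its count uncertain.

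The late 40S factors, which act on the small subunit precursor after the processome has left, had 4 members with relative differences from 0.25 to 0.43. Bysl had 554, 224 and 247 normalized counts in the controls against 1482, 2326 and 530, so that control 1 exceeded silencing-labelled library 3. Its relative difference was 0.43 (SE 0.31, limma adjusted p = 0.326). Nob1, the nuclease that makes the final cut of 18S rRNA, had 325, 176 and 178 against 791, 1455 and 363 normalized counts. Its groups were clear of overlap per spike-in, where it rose by 1.78 (SE 0.54, limma adjusted p = 0.00322), and not on the relative scale, where the difference was 0.25 (limma adjusted p = 0.429). Ltv1, needed for export of the small subunit, alone of the 4 had no overlap on the relative scale, at 0.39, beside 20.6% of all genes.

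**Figure D2:**
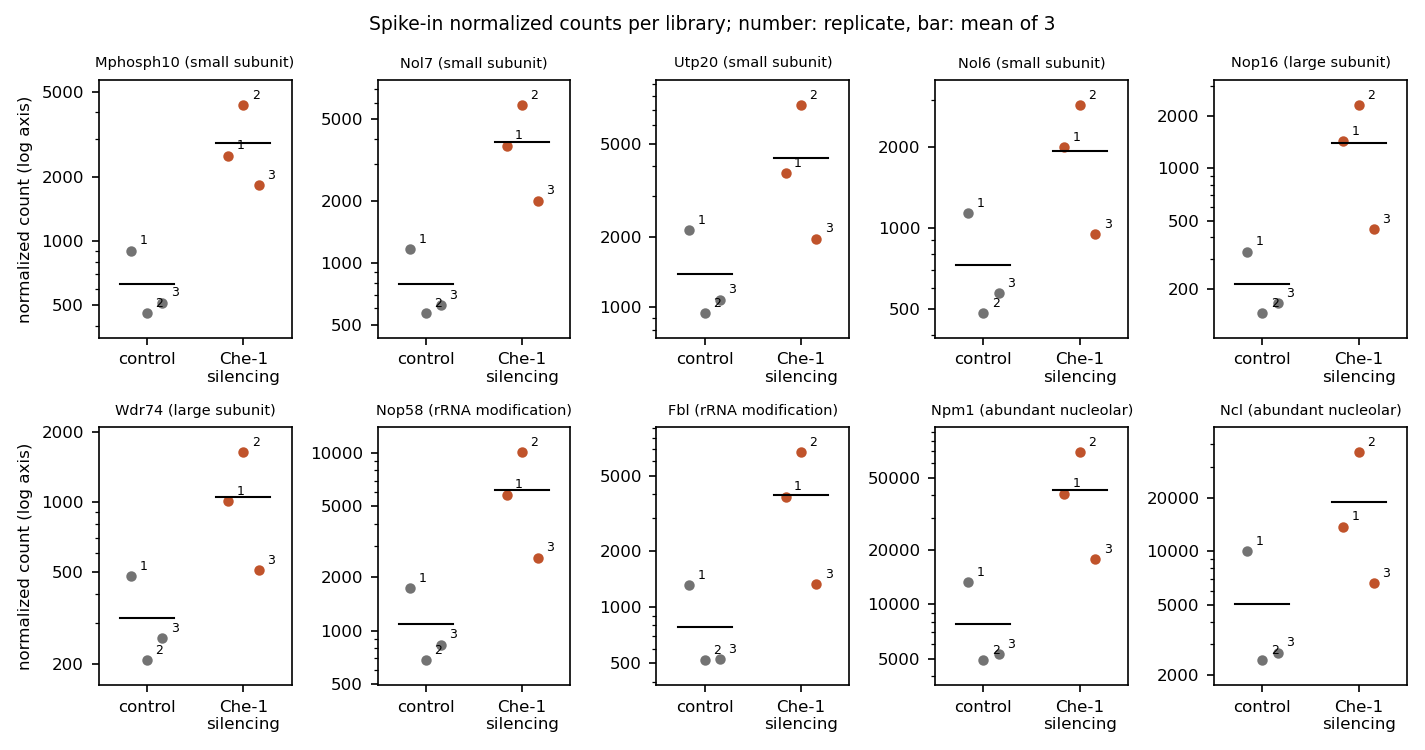
Spike-in normalized counts of 10 members in each of the 6 libraries, on log axes, with the replicate number beside each point and a bar at the mean of 3. Control 1 is the highest control in all 10, and silencing-labelled library 3 is the lowest of its group in all 10.

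All 19 large subunit factors also rose per spike-in, beside 66.8% of all tested genes, with a median log2 difference of 1.97. On the relative scale every one of the 19 was positive, beside 50.9% of all tested genes. Values ran from 0.14 for Wdr74 to 0.97 for Nop16, with a median of 0.44. At an unadjusted limma p under 0.05, 7 were higher, beside 17.9% of all genes. Groups were clear of overlap on the relative scale in 2 (10.5%), Nol8 at 0.42 and Ebna1bp2 at 0.65, beside 20.6% of all genes in that direction.

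The PeBoW complex, which processes the precursor of 5.8S and 28S rRNA, consists of Pes1, Bop1 and Wdr12. Pes1 had 1450, 667 and 754 normalized counts in the controls and 4501, 6905 and 1706 in the silencing-labelled libraries. Bop1 had 944, 505 and 534 against 2992, 4511 and 1097, and Wdr12 had 552, 225 and 283 against 1112, 1894 and 565. All 3 were without overlap per spike-in, beside 68.0% of all tested genes in that direction. The margin was narrow, since silencing-labelled library 3 lay close to control 1. Relative differences were 0.53 for Pes1 (SE 0.26, limma adjusted p = 0.184), 0.42 for Bop1 (SE 0.25, limma adjusted p = 0.256) and 0.16 for Wdr12 (SE 0.21, limma adjusted p = 0.589).

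Among pre-60S assembly factors the differences were wider. Nop16 had 331, 147 and 166 normalized counts in the controls and 1440, 2326 and 446 in the silencing-labelled libraries. It had the largest difference of all members on both scales, 2.50 per spike-in (SE 0.54, limma adjusted p = 8.19e-05) and 0.97 relative (SE 0.34, limma adjusted p = 0.108). Rrp1 was next among large subunit factors, with 2009, 926 and 1055 against 6540, 11832 and 2779 normalized counts and a relative difference of 0.73 (SE 0.25, limma adjusted p = 0.102). Rrs1, which helps to bring the 5S particle into the large subunit in yeast, had 451, 207 and 229 against 1615, 2507 and 543, and a relative difference of 0.70 (SE 0.30, limma adjusted p = 0.155). In each of these 3 genes silencing-labelled libraries 1 and 2 were far above the controls, and library 3 was nearer to control 1 than to them.

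Nop2, which methylates a cytosine of 28S rRNA, had 1281, 486 and 563 normalized counts against 3211, 4876 and 1302, and a relative difference of 0.42 (SE 0.27, limma adjusted p = 0.289). The lowest relative differences among large subunit factors belonged to Wdr74 and Nol9 beside Wdr12. Wdr74 had 476, 208 and 259 against 1008, 1630 and 506 normalized counts, and a relative difference of 0.14 (SE 0.20, limma adjusted p = 0.613). Nol9, a kinase that acts on the 5′ end of the cut precursor, had 1138, 530 and 612 against 2716, 4298 and 1182, and a relative difference of 0.21 (SE 0.22, limma adjusted p = 0.487). Per spike-in both rose, at 1.67 (limma adjusted p = 0.00598) and 1.74 (limma adjusted p = 0.00633).

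Of the 3 nucleolar GTPases, Gnl3, known as nucleostemin and abundant in stem and cancer cells, had 1346, 549 and 583 against 3089, 5551 and 1656 normalized counts. Its groups were clear per spike-in and overlapped on the relative scale, where the difference was 0.48 (SE 0.22, limma adjusted p = 0.169). Gnl2 and Gnl3l had relative differences of 0.42 and 0.27.

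Small and large subunit factors had class medians close to each other. The large class median less the small class median was 0.08. It is equal on both scales by construction, since these differ by 1 constant per library. By library this contrast was 0.07, −0.02 and −0.02 in controls 1, 2 and 3. It was 0.17, 0.11 and −0.04 in silencing-labelled libraries 1, 2 and 3. The groups overlap in this contrast, which was given no test. Leaving out 1 library moved the contrast, to 0.16 without control 1 or without library 3, 0.13 without library 1 and 0.051 without library 2. On the relative scale library 3 lay above every control in 11 of 30 small subunit factors (36.7%) and in 2 of 19 large subunit factors (10.5%), beside 33.6% of all tested genes. It lay above controls 2 and 3 in 66.7% of small and 73.7% of large subunit factors, beside 46.0% of all genes, and below every control in 23.3% and 15.8%, beside 33.4%. These shares point in different directions for the classes and were given no test. Without library 3 limma called 20 of the 30 small and 14 of the 19 large subunit factors as risen relative to the median gene, beside 27.7% of all genes, with class medians of 0.53 and 0.68.

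**Figure D3:**
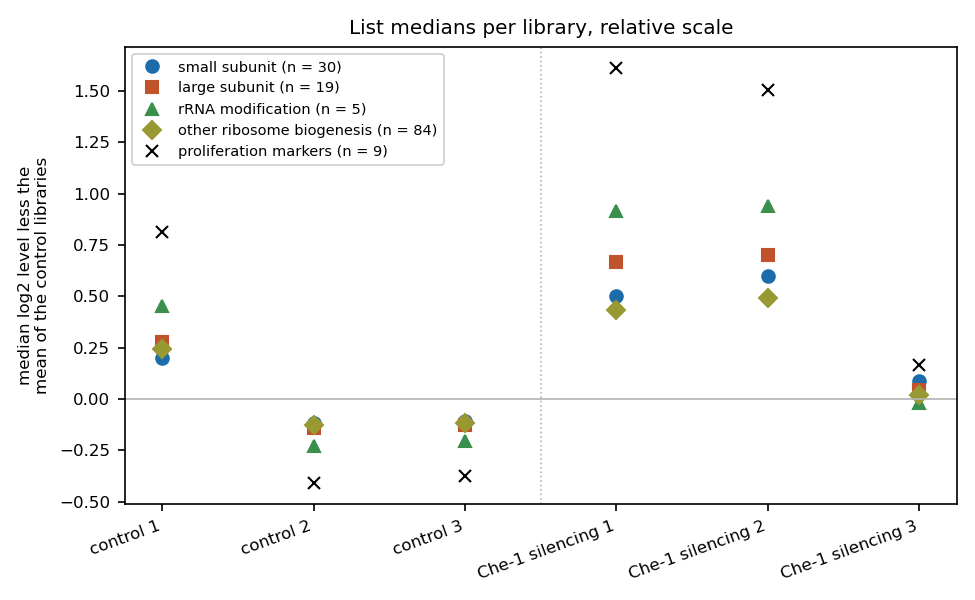
Median over each list of the log2 level relative to the median gene, as a difference from the mean of the 3 controls, for each of the 6 libraries. The lists are the small subunit, large subunit and modification classes, with 84 other ribosome biogenesis genes and 9 proliferation genes that are not members. Small and large subunit factors lie close together in each library, with control 1 above the other controls and silencing-labelled library 3 below libraries 1 and 2.

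The 5 modification proteins and the abundant nucleolar proteins had the highest class medians on the relative scale, 0.66 and 0.61. Fibrillarin (Fbl), the methyltransferase of box C/D particles, had 1307, 521 and 527 normalized counts in the controls and 3889, 6708 and 1323 in the silencing-labelled libraries. Library 3 exceeded control 1 only barely, and the relative difference was 0.66 (SE 0.34, limma adjusted p = 0.207). Its core partner Nop58 had 1733, 683 and 836 against 5834, 10105 and 2575, and was clear of overlap on both scales, at 2.42 per spike-in (SE 0.58, limma adjusted p = 3.74e-04) and 0.89 relative (SE 0.25, limma adjusted p = 0.0855). Nop56, which pairs with Nop58 in the particle, had 3210, 1214 and 1361 against 6958, 13226 and 3137. Control 1 exceeded library 3 here, and the relative difference was 0.39 (SE 0.28, limma adjusted p = 0.331).

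Dyskerin (Dkc1), the pseudouridine synthase of H/ACA particles and also a telomerase component, had 1446, 542 and 627 normalized counts against 4113, 6943 and 1844. Nop10, its small partner, had 547, 299 and 301 against 1921, 2370 and 686. Both stood clear of overlap per spike-in, beside 68.0% of all tested genes in that direction. Their groups overlapped on the relative scale, where the differences were 0.72 (SE 0.26, limma adjusted p = 0.116) and 0.46 (SE 0.25, limma adjusted p = 0.221).

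Npm1 had 13252, 4915 and 5286 normalized counts in the controls and 40799, 69193 and 17682 in the silencing-labelled libraries. The log2 difference was 2.39 per spike-in (SE 0.58, limma adjusted p = 3.7e-04) and 0.86 relative (SE 0.29, limma adjusted p = 0.101), without overlap on the first scale only. Its reads per library were selected with help of the deposited ratio and overall mean, and Npm1 has processed pseudogenes whose reads could be mixed with its own. Ncl, which binds ribosomal RNA precursors, had 10047, 2433 and 2683 against 13744, 36164 and 6622. Control 1 was above library 3, and Ncl had the widest error of the members with a class, with a relative difference of 0.35 (SE 0.46, limma adjusted p = 0.579).

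Nol3 was the only tested member that did not rise per spike-in (0.95, SE 0.63, limma adjusted p = 0.167). It also had the lowest relative difference, −0.58 (SE 0.36, limma adjusted p = 0.272). Its levels were low, from 21.4 to 26.9 normalized counts in the controls and from 37.0 to 69.6 in the silencing-labelled libraries. Nol4 did not reach the minimum mean, with 1 read in control 1 and 2 reads in silencing-labelled library 3.

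Across the members, variation between libraries of 1 group was large and shared. On the relative scale, the median member lay 0.25 above the control mean in control 1 and 0.14 and 0.12 below it in controls 2 and 3, while silencing-labelled libraries 1, 2 and 3 were at 0.59, 0.66 and 0.05. Control 1 exceeded controls 2 and 3 in 54 of 57 members (94.7%), which held for 45.4% of all tested genes. Libraries 1 and 2 each exceeded every control in most members, 50 (87.7%) and 51 (89.5%), beside 43.1% and 43.0% of all genes. Library 3 did so in 14 (24.6%), beside 33.6% of all genes, and lay below every control in 10 (17.5%), beside 33.4%. It was above controls 2 and 3 in 40 (70.2%), beside 46.0% of all genes.

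Proliferation genes, a list of 10 cell cycle and replication genes of which 9 were recovered, also stood higher in control 1 than in controls 2 and 3, and higher in silencing-labelled libraries 1 and 2 than in library 3. On the relative scale their median lay at 0.81, −0.41 and −0.37 in controls 1, 2 and 3, and at 1.61, 1.51 and 0.17 in silencing-labelled libraries 1, 2 and 3. Medians of the other lists are on that scale too, whereas sums are of spike-in normalized counts over the recovered markers. All 9 rose per spike-in, beside 66.8% of all tested genes. Their summed level ran from 7638 to 26172 normalized counts in the controls and from 26171 to 164494 in the other group. None of the 9 was at 0 in all libraries together. Erythroid markers, of which 4 of 6 reached the minimum mean, had medians of 1.17, −0.57 and −0.60 in the controls and −3.51, −2.35 and −0.98 in the silencing-labelled libraries. Their summed levels, over all 6, were 9517 to 50833 and 3988 to 16524. Neutrophil markers had medians of −0.80, 0.39 and 0.39, then −3.61, −1.77 and 0.57, with sums of 3685 to 5537 and 1041 to 12576. B cell markers, 5 of 6 recovered, had list medians from −0.20 to 0.30 over the 6 libraries, with sums of 11051 to 22173 and 25009 to 79390. Plasma cell markers had medians of −0.64, 0.33 and 0.31 in the controls and −0.73, −0.58 and 0.59 in the silencing-labelled libraries, with sums of 15017 to 21047 and 29387 to 47365. T cell markers had medians from −0.11 to 0.07 over the 6 libraries, with sums of 3424 to 5047 and 7312 to 25152. Macrophage markers had medians of −0.61, 0.28 and 0.33, then 0.23, 0.33 and 0.43, with sums of 12401 to 16709 and 42086 to 87630. What part these lists have in the members' differences was not tested.

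**Figure D4:**
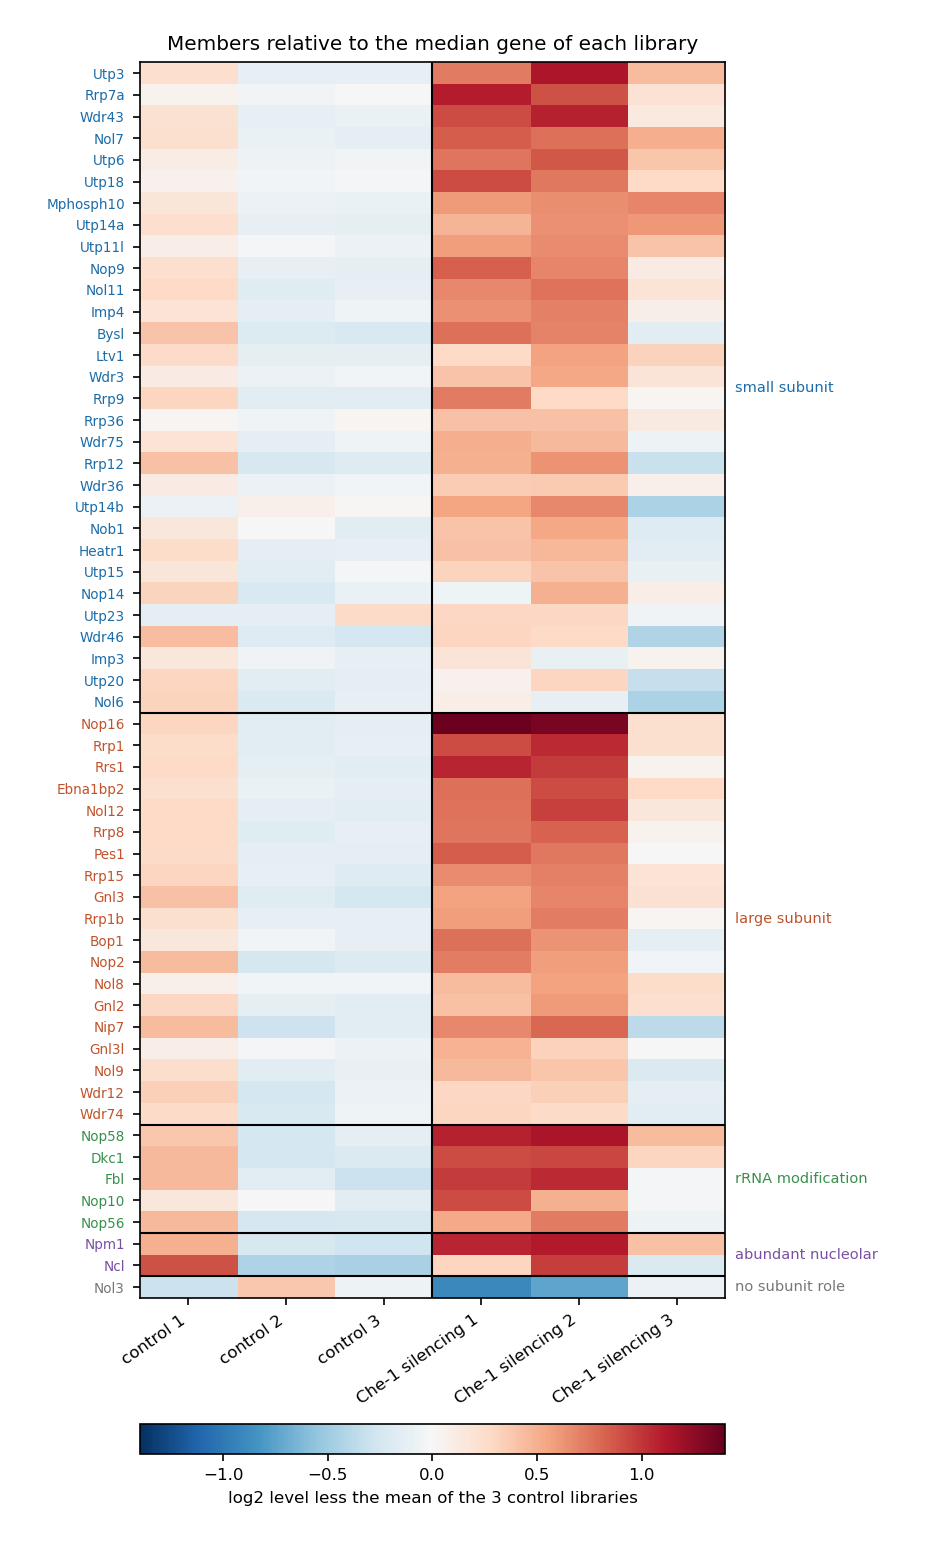
Log2 level relative to the median gene of each tested member in each library, as a difference from the mean of the 3 controls. Members are ordered by class and, within a class, by falling relative difference. Control 1 and silencing-labelled libraries 1 and 2 are high through most members, and library 3 is near the control mean.

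Ribosome biogenesis genes that the symbol rule does not take in gave values close to those of the members. All 84 on this list rose per spike-in and 0 fell, beside 66.8% and 0.745% of all tested genes, with a median log2 difference of 1.84. On the relative scale 72 of the 84 were positive, beside 50.9% of all genes, the median was 0.31, and limma called 0. At an unadjusted p under 0.05, 25 were higher and 0 lower, beside 17.9% and 17.3% of all genes, and DESeq2 called 18 as risen, beside 15.0%. The highest were Lyar, a nucleolar zinc finger protein, and Tcof1, which encodes treacle, a cofactor of RNA polymerase I. Lyar had 710, 239 and 254 against 2157, 4408 and 893 normalized counts and a relative difference of 1.01 (SE 0.35, limma adjusted p = 0.108). Tcof1 had 2282, 1025 and 1227 against 12556, 19130 and 2297, with library 3 barely above control 1 and a relative difference of 0.999 (SE 0.51, limma adjusted p = 0.2). Pno1, a partner of Nob1, was next at 0.80 (SE 0.27, limma adjusted p = 0.101), and its groups did not overlap. At the other end, Abt1, Las1l and Ddx51 had relative differences of −0.29, −0.22 and −0.22, while rising per spike-in by 1.24, 1.31 and 1.31. Ngdn, a partner of Aatf in the processome and named here after its values were seen, had a relative difference of 0.64 (SE 0.18, limma adjusted p = 0.0864) without overlap. The precursor transcript itself, Rn45s, was not recovered per library. In the authors' deposited table its means were 269639 and 587960, with a fold of 2.18 and an adjusted p of 0.252, in libraries depleted of ribosomal RNA.

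Promoters of the members were searched for 3 short motifs. Of the 44 members with a RefSeq promoter entry (GRCm38.p6), 11 (25.0%) hold the E-box CACGTG, the site form of MYC family and related factors, in the 250 bases before to 50 after the start, beside 10.7% of the 12364 table genes with an entry and 7.15% of 32851 promoters. The ETS family form CCGGAAG, searched on both strands, is in 15 (34.1%), beside 16.3% and 8.86%. The NRF1 form CGCATGC, on both strands, is in 3 (Mphosph10, Nob1 and Utp20, 6.82%), beside 6.29% and 3.58%. The E-box is in 9 of 24 small and 2 of 15 large subunit promoters, and the ETS form in 9 of 24 and 6 of 15. Members with and without an E-box had relative median differences of 0.47 and 0.43, and with and without the ETS form 0.42 and 0.44. The 3 members with both forms upstream serve as examples, 5′ to 3′ on the gene's strand, each as the 250 bases before the start, with E-box and ETS letters in capitals. They are Nop2 (chr6:125131633-125131882, plus strand), Utp18 (chr11:93885767-93886016, minus strand) and Wdr46 (chr17:33940473-33940722, plus strand).
Nop2: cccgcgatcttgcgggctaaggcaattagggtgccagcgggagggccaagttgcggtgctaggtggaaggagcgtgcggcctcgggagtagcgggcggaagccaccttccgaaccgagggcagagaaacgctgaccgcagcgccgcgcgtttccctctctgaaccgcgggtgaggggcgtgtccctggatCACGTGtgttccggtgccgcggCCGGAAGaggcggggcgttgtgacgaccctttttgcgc
Utp18: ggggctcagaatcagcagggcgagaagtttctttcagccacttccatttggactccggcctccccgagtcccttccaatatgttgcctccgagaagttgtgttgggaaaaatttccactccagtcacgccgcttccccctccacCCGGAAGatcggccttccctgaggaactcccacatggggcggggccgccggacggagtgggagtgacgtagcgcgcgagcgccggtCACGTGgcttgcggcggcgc
Wdr46: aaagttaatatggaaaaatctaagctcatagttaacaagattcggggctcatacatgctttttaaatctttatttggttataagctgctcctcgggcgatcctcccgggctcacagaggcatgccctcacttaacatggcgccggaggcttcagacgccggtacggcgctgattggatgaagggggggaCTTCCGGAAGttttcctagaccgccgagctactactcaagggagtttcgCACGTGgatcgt
The E-box begins 60, 20 and 12 bases before the start in Nop2, Utp18 and Wdr46. The ETS form begins 38 bases before the start in Nop2 and 106 in Utp18, and in Wdr46 it occurs on both strands in overlap, at 61 and 58. These 3 genes had relative differences of 0.42, 0.64 and 0.06, with SEs of 0.27, 0.18 and 0.28, and that of Wdr46 changed sign under several alternatives.

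Several member genes carry small nucleolar RNA genes within them, in the GENCODE annotation of GRCm38. They are Dkc1 (1), Gnl3 (3), Ncl (3), Nop56 (5), Nop58 (4) and Wdr43 (3), all on the host's strand. The 6 hosts had a relative median of 0.60 and the other 51 tested members 0.42. For 17 members a coding gene overlaps on the opposite strand. The libraries are stranded per the labels, but no source used here gives the counting setting, so these counts may hold reads of the neighbour.

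In the authors' deposited table all 58 members had a ratio above 1 for Che-1 silencing over control, on the spike-in scale. Most genes were higher on that scale, with a positive limma log2 difference in 13737 of all 14636 tested genes. The authors' adjusted p was at most 0.05 for 0 members, beside 0.0773% of the 16825 genes with a value, and the lowest among members was 0.186. At an unadjusted p under 0.05 the authors' table had 32 members, beside 26.9% of all genes.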

How the data were processed

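Bone marrow RNA of 3 control and 3 Che-1 silencing libraries was analysed. Build mm9 and the tools HTSeq, TopHat, Cufflinks and Cuffdiff are named, per the submitters' processing notes, without versions or counting settings. For 92 ERCC spike-ins the authors deposited raw counts in each library, beside 5 summary rows that name no spike-in. The gene table holds, per the file headers, group means of normalized counts (a signal), their ratio (fold), its log2 value, a p-value and an adjusted p-value.

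The planned fit assumed values per library. Whole counts were therefore solved from the deposited means, with size factors taken as the median ratio over the 72 rows without a 0 (70 spike-ins and 2 summary rows). Means under 50 (4739 control and 3330 Che-1 silencing) each had exactly 1 solution, whereas factors taken from spike-ins alone solved 0 of them. For 32 genes the deposited ratio and overall mean selected among several sets. All 2804 genes above 1000 with a single solution also gave the deposited ratio and overall mean.

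limma 3.58.1 (R 4.3.3, mean trend, eBayes) was fitted to log2(normalized count + 1) for the 14636 recovered genes with a mean of at least 10, with Benjamini-Hochberg adjustment over all of them and a threshold of 0.05. Differences on this scale understate the change of low genes. Prior degrees of freedom were infinite on the spike-in scale, so all genes of similar level share one error there, and 2.41 on the relative scale. The p-value of a single gene on the spike-in scale thus treats that error as known, although only 6 libraries set it. edgeR 4.0.16 and DESeq2 1.42.0 on the recovered counts were alternatives. The scripts were tested on simulated data. With 3 libraries against 3, an exact permutation test of 1 value cannot go below 0.1, and none was used.

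Members and lists were chosen with earlier results of these data known. Values in every library are given for 20 hallmark members and for the 3 highest and 3 lowest on the relative scale among small and among large subunit factors, and named from the other ribosome biogenesis genes are the 3 highest and 3 lowest. No genome coordinates of the deposited files were used. Promoters are from RefSeq (GRCm38.p6), and overlaps from GENCODE.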

Additional observations from a re-analysis of the deposited data

How the results depend on the processing

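The median differences of the members and of the other ribosome biogenesis genes, and the large less small contrast, kept their direction under every alternative run. The contrast ran from 0.051 to 0.16 when 1 library was left out. The members' median ran from 1.53 to 2.46 on the spike-in scale and from 0.34 to 0.62 on the relative scale when 1 library was left out. The number of members that rose per spike-in, 56, was 22 to 56 with 1 library left out (22 without control 2, 23 without control 3, 35 without silencing-labelled library 1, 40 without library 2), 23 with controls 2 and 3 summed and 0 with each gene's own spread, an alternative chosen after seeing the data. For the other ribosome biogenesis genes the number, 84, was 18 to 84 (18 without control 2, 20 without control 3, 40 without library 1, 52 without library 2), 19 with the controls summed and 0 with the own spread. Of all tested genes 22.1% rose without control 2, 24.3% without control 3, 39.0% without library 1 and 42.0% without library 2. The share was 23.5% with the controls summed and 0.00% with the own spread. Without control 2, without control 3 and with the controls summed, these other genes were thus close to the share of all genes. On the relative scale the members that rose, 0, were 0 to 39 with 1 library left out (39 without library 3) and 15 by DESeq2, and the other genes 0 to 41 (41 without library 3) and 18 by DESeq2. Of all tested genes 27.7% rose on that scale without library 3 and 15.0% by DESeq2. Where a library was left out, fewer samples carried the fit, and the cause of the remaining changes was not tested.

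Relative differences near 0 changed sign in 3 members. Imp3 ran from −0.026 to 0.12 with 1 library left out (−0.018 without control 3). Wdr46 ran from −0.070 to 0.29, and was −0.051 with controls 2 and 3 summed. Utp20 ran from −0.13 to 0.18, and was −0.020 at a minimum mean of 50, −0.005 by edgeR, −0.009 by DESeq2, −0.0095 by TMM and −0.059 with the controls summed.

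Replicate numbers did not pair the libraries, since deviations of same-numbered libraries correlated at 0.167, −0.151 and 0.182. With the replicate number as a block, 52 members rose per spike-in and 0 on the relative scale. The share of all tested genes that rose in this fit is not given here. It was 66.8% per spike-in without a block, so the count of 52 is not a result about the members alone.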
